A study of Mus musculus with 16 samples.

Results

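The 34 genes described here encode the core machinery of autophagy. They were chosen by symbol as known components of the pathway, by a rule that uses no measured value but was written with earlier results of these data known, and all 34 were found among the 24421 gene symbols of the count tables. They comprise the ULK kinase complex (Ulk1, Ulk2, Rb1cc1, Atg13), the class III phosphatidylinositol 3-kinase complex and its partners (Becn1, Pik3c3, Pik3r4, Atg14, Uvrag, Ambra1), and the lipid transfer and PI3P-binding proteins (Atg9a, Atg2a, Atg2b, Wipi1, Wipi2). The conjugation machinery (Atg3, Atg4b, Atg4c, Atg5, Atg7, Atg10, Atg12, Atg16l1, Atg16l2), the LC3 and GABARAP family (Map1lc3a, Map1lc3b, Gabarap, Gabarapl1, Gabarapl2), the cargo receptors (Sqstm1, Optn, Nbr1, Tax1bp1) and the transcription factor Tfeb make up the rest.

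Macroautophagy, the form of autophagy meant here, encloses cytoplasm, organelles or bacteria in a double membrane that fuses with the lysosome. The ULK complex starts the process, the class III kinase complex marks the membrane with PI3P, WIPI and ATG2 proteins feed it lipid, and 2 ubiquitin-like conjugation reactions attach LC3 and GABARAP proteins to it, where cargo receptors dock. In myeloid cells the pathway is known for the turnover of mitochondria, for the handling of bacteria and for restraint of the NLRP3 inflammasome, a cytosolic sensor complex that activates caspase-1.

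RNA was taken from myeloid-derived suppressor cells (MDSCs) sorted from the spleens of mice carrying subcutaneous B16.F10 melanoma, a transplantable tumour of C57BL/6 origin. Monocytic M-MDSCs (CD11b high, Ly6C+, Ly6G-) and granulocytic G-MDSCs (CD11b high, Ly6C-, Ly6G+) came from 4 wild type (WT) and 4 Nlrp3-/- mice, which gave 16 libraries, 4 in each group. All mice were on the C57BL/6 background and bore the tumour, so no tumour-free group entered the comparisons. Per the study's methods, C57BL/6J mice were bought from the Jackson Laboratory and the Nlrp3-/- line came from another laboratory. The paper also reports smaller B16.F10 tumours in Nlrp3-/- than in WT mice. Source of the mice and tumour size therefore cannot be told apart from genotype. Mice were 6 to 12 weeks old and matched for age and sex per the study's methods. The Nlrp3-/- line lacks the gene in every cell, through an EGFP cassette placed in Nlrp3, so effects within MDSCs and effects from other cells of the host cannot be told apart. Each library came from 1 mouse, and both subsets of a mouse carried the same mouse label. The tag-based assay read transcript 3′ ends and so gave a level per transcript rather than per base.

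Library totals ran from 2295967 to 6079866 counts, of which the 34 genes took 0.224% to 0.344%. Nlrp3 stood at 40.6, 88.7, 53.1 and 79.7 CPM, that is, counts scaled to a common library total, in WT M-MDSCs and at 0.697, 1.87, 0.834 and 0.513 CPM in the Nlrp3-/- M-MDSCs. In G-MDSCs it stood at 288, 251, 330.3 and 313 CPM in WT and at 13.6, 11.3, 7.03 and 5.50 CPM in Nlrp3-/- cells, so each library matched its genotype label. The summed level of 10 monocyte markers was 6655 to 9579 CPM in M-MDSCs and 929 to 1668 CPM in G-MDSCs, and Ccr2 stood at 792 to 1561 CPM against 3.39 to 12.3 CPM. The 11 neutrophil markers summed to 115725 to 151429 CPM in WT and 141482 to 176141 CPM in Nlrp3-/- G-MDSCs. In M-MDSCs they summed to 1722, 8741, 1454 and 1878 CPM in WT and to 2203, 2300, 2550 and 2262 CPM in Nlrp3-/- libraries. M-MDSC WT replicate 2 stood apart, and the other WT M-MDSC libraries lay below every Nlrp3-/- one. Ly6g was not analysed here. The sum of the 12 dendritic cell and macrophage markers moved with genotype. It was 70.9 to 108 CPM in M-MDSC WT and 157 to 302 CPM in M-MDSC Nlrp3-/- libraries. In G-MDSCs it was 247 to 409.7 CPM in WT and 606 to 730.4 CPM in Nlrp3-/- libraries. C1qa, C1qb, C1qc, Vcam1 and Cd5l were higher without overlap in Nlrp3-/- cells of both subsets, and Itgax in G-MDSCs only. Flt3, Zbtb46, Cd209a, Siglech, Clec9a and Xcr1 overlapped between genotypes in both subsets. None of the 12 was at 0 in every library of a group except Xcr1, in G-MDSC Nlrp3-/- cells, where Epx of the next list was at 0 too. The 6 eosinophil and basophil markers summed to 4.63 to 24.8 and 24.5 to 68.6 CPM in the WT and Nlrp3-/- M-MDSCs, and to 25.7 to 51.7 and 57.7 to 65.2 CPM in the G-MDSCs. In sorted pools, a change in the share of a cell type and a change in RNA per cell cannot be told apart.

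Relative to the other genes of the same library, the autophagy genes stood higher in G-MDSCs than in M-MDSCs, and the genotypes of a subset overlapped. The mean log2 CPM over the 34 genes was 5.17 ± 0.07 in M-MDSC WT, 5.15 ± 0.08 in M-MDSC Nlrp3-/-, 5.79 ± 0.07 in G-MDSC WT and 5.91 ± 0.11 in G-MDSC Nlrp3-/- cells (mean ± SD, n = 4 each). The libraries ranged from 5.04 to 5.23 in M-MDSCs and from 5.72 to 6.04 in G-MDSCs. The 34 genes took 0.224% to 0.271% of the counts of an M-MDSC library and 0.281% to 0.344% of those of a G-MDSC library, with no overlap. The mean levels rest on TMM scaling. With library size alone the 4 means became 5.50, 5.60, 5.39 and 5.54 and the order of the subsets turned within each genotype. Set against the median of all expressed genes of the same library, the 34 genes stood 0.90 and 0.93 log2 units above it in WT and Nlrp3-/- M-MDSCs and 1.67 and 1.77 above it in G-MDSCs, and with library size alone these distances were 0.90, 0.93, 1.67 and 1.76.

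**Figure D1:**
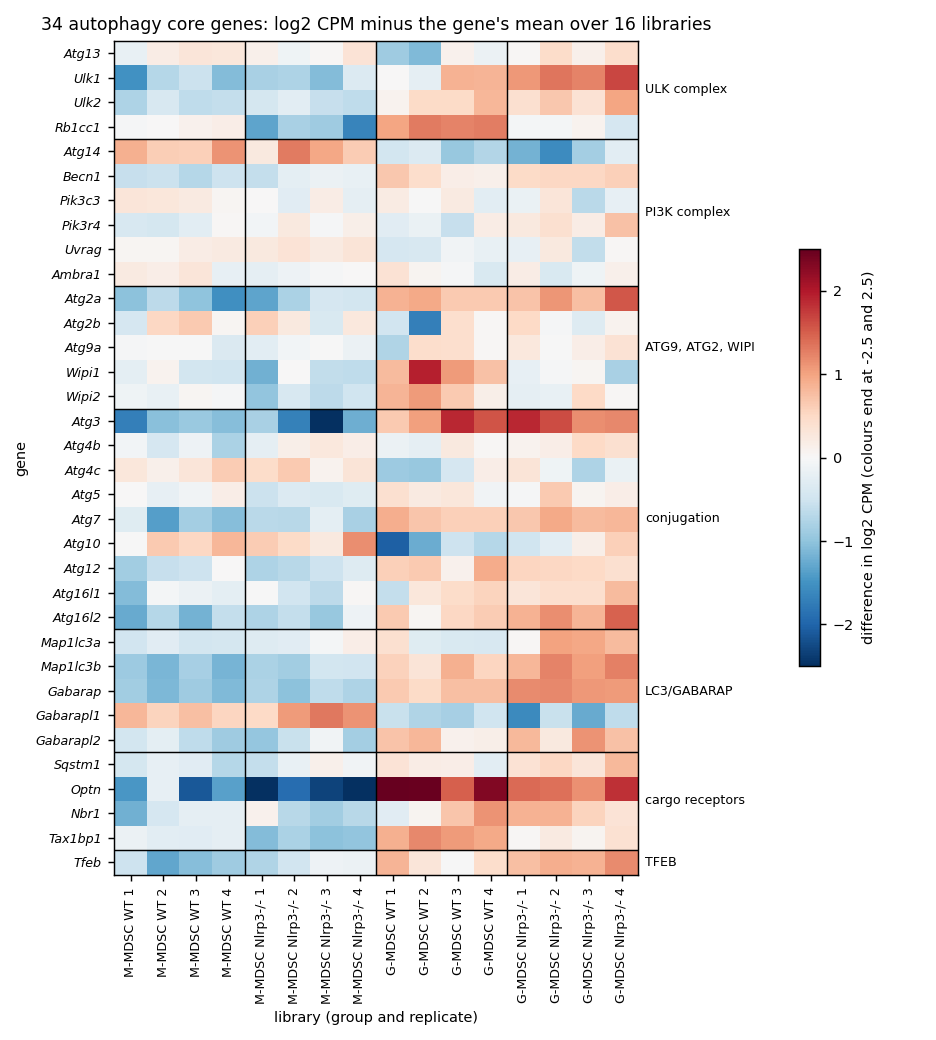
Heat map of the 34 genes (rows, by role) in the 16 libraries (columns, by group), showing log2 CPM minus the gene's mean over all libraries, under TMM scaling. Rows such as Optn, Atg3 and Gabarap turn from blue in M-MDSCs to red in G-MDSCs, Atg14 and Gabarapl1 do the opposite, and Rb1cc1 and Tax1bp1 are paler or bluer in the Nlrp3-/- libraries of each subset.

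The first comparison asked how the 2 MDSC subsets of a tumour-bearing mouse differ. In WT mice 18 of the 34 genes were higher and 4 were lower in G-MDSCs (edgeR quasi-likelihood test, Benjamini-Hochberg adjusted p below 0.05 and a fold above 1.5). Of all 9739 genes tested, 26.3% were called higher and 27.1% lower. In Nlrp3-/- mice 18 were higher and 2 were lower, against 23.7% and 27.4% of 10071 genes. The same 16 genes were higher in both genotypes, 2 (Atg14 and Gabarapl1) were lower in both, and no gene was called in opposite directions. None of the 34 passed in the test of whether the subset difference itself varied with genotype (edgeR, interaction of subset and genotype). The median log2 fold change of the 34 genes was 0.87 in WT mice and 0.66 in Nlrp3-/- mice, where the median of all genes was -0.05 and -0.12. CPM values of the subsets did not overlap for 21 genes in WT and 22 genes in Nlrp3-/- mice, while 51.9% and 50.2% of all genes did not overlap. The counts of 18 and 4 in WT mice were the same without M-MDSC WT replicate 2, the library with the most neutrophil marker counts. Within the mouse, 19 genes were higher in the G-MDSCs of all 8 mice and 5 were lower in all 8, where 27.9% of all 9503 genes tested in both genotypes were higher and 27.9% lower.

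Scaling bears on this comparison. The 20 most abundant genes took 27.9% to 43.2% of the counts in G-MDSCs and 15.2% to 30.0% in M-MDSCs, and the TMM factors were 0.722 to 0.804 and 1.20 to 1.46. With library size alone, the median of all genes moved to -0.79 in WT and -0.83 in Nlrp3-/- mice and that of the 34 genes to 0.12 and -0.06, so that their distance was 0.91 and 0.77 against 0.92 and 0.78 with TMM. On that scale 9 were higher and 10 lower in WT mice, and 7 higher and 10 lower in Nlrp3-/- mice, while 1166 of all genes were higher and 5061 lower in WT mice (2557 and 2636 with TMM) and 1146 higher and 5034 lower in Nlrp3-/- mice (2383 and 2758 with TMM). In all, 13 of the 22 calls in WT mice and 9 of the 20 in Nlrp3-/- mice held on both scales. Within the mouse, 9 genes were then higher in all 8 mice and 11 lower, where 12.5% and 53.2% of all genes were. Optn, Atg3, Gabarap, Map1lc3b and Atg2a (higher) and Atg14 and Gabarapl1 (lower) were among these in each genotype. Pik3c3, Uvrag, Ambra1, Atg13 and Atg2b, which did not pass with TMM, were lower in both genotypes on that scale, by 0.68 to 1.32 on the log2 scale.

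Among the conjugation enzymes, Atg3, the E2-like enzyme that passes LC3 to phosphatidylethanolamine, differed most. It stood at 24.1, 38.7, 41.7 and 38.3 CPM in M-MDSC WT and at 126, 163, 297 and 241 CPM in G-MDSC WT libraries. In Nlrp3-/- mice it stood at 45.6, 24.7, 13.1 and 34.1 CPM in M-MDSCs and at 297, 248, 181 and 186 CPM in G-MDSCs. Every G-MDSC library lay above every M-MDSC library, and the log2 fold change was 2.53 (SE 0.28, adjusted p = 1.04e-05) in WT and 2.82 (SE 0.32, adjusted p = 5.35e-06) in Nlrp3-/- mice. Atg7, the E1-like enzyme that serves both conjugation reactions, was 2.95-fold higher in WT and 2.45-fold higher in Nlrp3-/- G-MDSCs (70.2 ± 23.3 against 207 ± 22.1 CPM, mean ± SD, in WT mice). Atg12 and Atg16l2 were also higher in both genotypes under TMM, with log2 fold changes of 1.07 and 0.95 for Atg12, the ubiquitin-like partner of ATG5, and of 1.42 and 1.58 for Atg16l2. With library size alone Atg12 no longer passed in WT mice (0.32, adjusted p = 0.245). Atg10, the E2-like enzyme for ATG12, went the other way in WT mice, at 7.96 ± 1.92 CPM in M-MDSCs and 2.44 ± 1.17 CPM in G-MDSCs (-1.66, SE 0.41, adjusted p = 0.00405), where the lowest G-MDSC library held 3 counts of it. In Nlrp3-/- mice its value was -0.78 (adjusted p = 0.106). Atg4c, a protease that trims LC3 proteins, was lower in G-MDSCs of WT mice (-0.82, adjusted p = 0.0229), a call lost without M-MDSC WT replicate 4, G-MDSC WT replicate 1 or G-MDSC WT replicate 2 (adjusted p up to 0.0604). Atg16l1 passed only in Nlrp3-/- mice (0.62, adjusted p = 0.0355), where the call was lost without M-MDSC replicate 2, M-MDSC replicate 3 or G-MDSC replicate 4 (adjusted p up to 0.0952) and the sign turned with library size alone (-0.10). Atg5, which joins ATG12 and ATG16L1 in the complex that directs LC3 to the membrane, gave 0.24 and 0.52 and did not pass the rule in either genotype, nor did Atg4b (0.32 and 0.08).

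The LC3 and GABARAP genes, whose products coat the growing membrane, split within the family. Map1lc3b stood at 169, 144, 179 and 141 CPM in M-MDSC WT and 476, 398, 587 and 465 CPM in G-MDSC WT libraries, and at 183, 173, 232 and 227 and 570.1, 752, 649.7 and 761 CPM in the corresponding Nlrp3-/- libraries. The 2 subsets were far apart, at 1.61 (SE 0.17, adjusted p = 7.02e-06) and 1.63 (SE 0.16, adjusted p = 1.55e-06). Gabarap stood at 160.5, 134, 159 and 137 CPM in M-MDSC WT, 463, 411, 495 and 497 CPM in G-MDSC WT, 173, 143, 189 and 173 CPM in M-MDSC Nlrp3-/- and 666, 679, 622 and 619 CPM in G-MDSC Nlrp3-/- libraries. Its log2 fold change was 1.66 (SE 0.15, adjusted p = 1.98e-06) in WT and 1.82 (SE 0.15, adjusted p = 2.07e-07) in Nlrp3-/- mice. Gabarapl2 stood at 19.1, 22.0, 16.7 and 14.0 CPM in M-MDSC WT, 43.7, 47.0, 28.6 and 29.1 CPM in G-MDSC WT, 13.4, 17.7, 24.6 and 14.4 CPM in M-MDSC Nlrp3-/- and 46.6, 31.1, 57.7 and 43.8 CPM in G-MDSC Nlrp3-/- libraries. It too was higher in every G-MDSC library, by 1.03 and 1.25 on the log2 scale (adjusted p = 0.00244 and 0.000807). With library size alone Gabarapl2 no longer passed in WT mice (0.28, adjusted p = 0.268).

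Gabarapl1 moved against its relatives. It stood at 46.2, 38.0, 44.0 and 37.6 CPM in M-MDSC WT and 36.5, 54.7, 64.8 and 56.6 CPM in M-MDSC Nlrp3-/- libraries. In G-MDSCs it stood at 17.3, 15.2, 14.3 and 18.3 CPM in WT and 8.31, 17.5, 10.6 and 16.5 CPM in Nlrp3-/- libraries, each below every M-MDSC library. The log2 fold change was -1.35 (SE 0.18, adjusted p = 5.61e-05) and -2.12 (SE 0.27, adjusted p = 1.59e-05), so the closely related Gabarap and Gabarapl1 differed in opposite directions under TMM and under library size alone. Map1lc3a overlapped between subsets and passed only in Nlrp3-/- mice (0.74, adjusted p = 0.0127, against 0.29 in WT mice). Its level in each library is given with the genotype comparison.

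**Figure D2:**
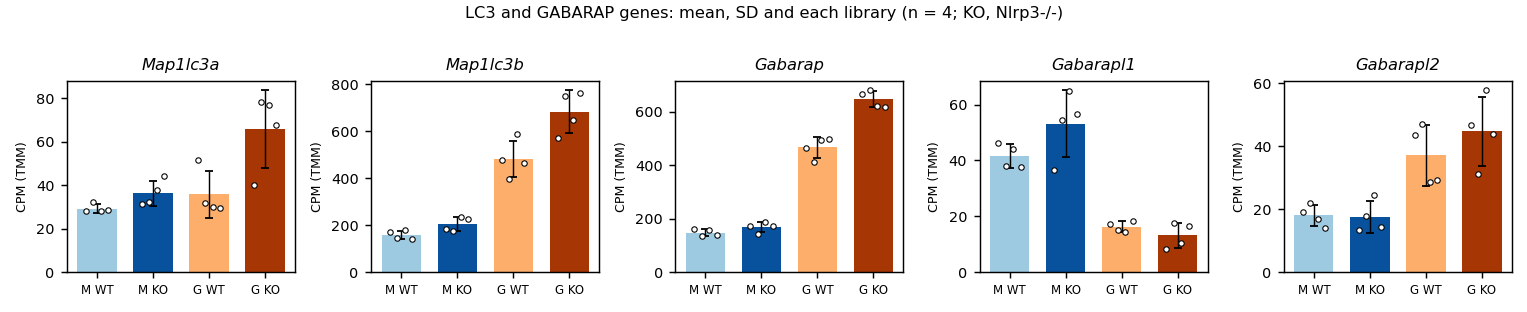
CPM (TMM-scaled) of the 5 LC3 and GABARAP genes in M-MDSCs (M) and G-MDSCs (G) of WT and Nlrp3-/- (KO) mice. Bars are means, error bars SD and points the 4 libraries of a group. Map1lc3b, Gabarap and Gabarapl2 are higher in G-MDSCs and keep that sign with library size alone, Gabarapl1 is lower on both scales, and Map1lc3a overlaps. On that scale Gabarapl2 no longer passed in WT mice.

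In the upstream complexes Ulk1, Ulk2, Rb1cc1 and the lipid carrier Atg2a were higher in G-MDSCs under TMM. Atg2a, which encodes a bridge-like lipid transfer protein, stood at 62.9, 81.8, 63.6 and 44.1 CPM in M-MDSC WT, 236, 247, 203 and 202 CPM in G-MDSC WT, 51.2, 74.1, 95.5 and 93.2 CPM in M-MDSC Nlrp3-/- and 211, 276, 217 and 377 CPM in G-MDSC Nlrp3-/- libraries. The groups did not overlap, and the log2 fold change was 1.81 (SE 0.19, adjusted p = 8.49e-06) in WT and 1.67 (SE 0.23, adjusted p = 3.01e-05) in Nlrp3-/- mice. Its paralog Atg2b gave -0.51 and -0.26 (adjusted p = 0.277 and 0.466). Of the ULK complex, Ulk1 (1.38 in WT and 1.96 in Nlrp3-/- mice), Ulk2 (1.10 and 0.99) and Rb1cc1, the scaffold also known as FIP200 (1.15 and 0.93), were higher in both genotypes under TMM, while Atg13 did not pass (-0.58 and 0.05). In WT mice Ulk1 (0.64, adjusted p = 0.0786) and Ulk2 (0.37, adjusted p = 0.145) no longer passed with library size alone. Nor did Rb1cc1, at 0.40, under the fold minimum. Within the class III kinase complex Becn1, its regulatory subunit, was higher under TMM (0.95 and 0.70). With library size alone Becn1 gave 0.20 in WT mice (adjusted p = 0.261), and its sign turned to -0.02 in Nlrp3-/- mice. Atg14, the subunit that directs the complex to autophagy, was lower. Atg14 stood at 23.7, 19.5, 19.2 and 28.1 CPM in M-MDSC WT, 9.0, 9.80, 6.29 and 7.38 CPM in G-MDSC WT, 15.0, 31.7, 25.0 and 19.8 CPM in M-MDSC Nlrp3-/- and 5.31, 3.94, 6.83 and 10.5 CPM in G-MDSC Nlrp3-/- libraries. The fold change was -1.47 (SE 0.24, adjusted p = 0.000283) in WT and -1.89 (SE 0.34, adjusted p = 0.000329) in Nlrp3-/- mice, with no overlap. The catalytic subunit Pik3c3 (-0.16 and -0.19), the kinase-like subunit Pik3r4 (0.08 and 0.21), Ambra1 (-0.11 and -0.05) and Uvrag (-0.39 and -0.51) did not pass the rule, although Uvrag passed on adjusted p alone (0.0353 and 0.031).

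Optn, a ubiquitin-binding receptor for mitochondria and bacteria, differed more than any other of the 34 genes. It stood at 2.23, 5.89, 1.25 and 2.39 CPM in M-MDSC WT and 45.3, 39.9, 19.8 and 35.8 CPM in G-MDSC WT libraries. In Nlrp3-/- mice it stood at 0.813, 1.53, 1.04 and 0.641 CPM in M-MDSCs, where a library held 5 to 9 counts, and at 18.9, 18.5, 15.5 and 25.1 CPM in G-MDSCs. The fold was 11.4 in WT mice (log2 3.51, SE 0.43, adjusted p = 2.64e-05) and 17.9 in Nlrp3-/- mice (log2 4.16, SE 0.39, adjusted p = 6.79e-07). The highest M-MDSC value was that of WT replicate 2, the library with the most neutrophil marker counts. Without it the log2 fold change in WT mice rose from 3.51 to 4.12, a factor of 1.53 in fold. Tax1bp1, another ubiquitin-binding receptor, and Nbr1 were higher by 1.26 and 1.04 and by 0.98 and 1.04 under TMM (Tax1bp1 0.51 and 0.31 with library size alone, no longer passing), but the Nbr1 call in WT mice was lost without M-MDSC WT replicate 1 or G-MDSC WT replicate 4 (adjusted p up to 0.062). Sqstm1, which encodes p62, had an adjusted p of 0.0224 and 0.015 and a fold of 1.44 and 1.48, under the minimum of 1.5. Tfeb, the transcription factor of lysosomal and autophagy genes, was higher in G-MDSCs at 35.8 ± 8.57 against 91.3 ± 23.3 CPM in WT (1.35, SE 0.23, adjusted p = 0.000304) and 53.0 ± 10.6 against 130.4 ± 16.8 CPM in Nlrp3-/- mice (1.18, SE 0.18, adjusted p = 7.3e-05).

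TFEB recognises sites built around the E-box CACGTG, which reads the same on both strands, and the promoters of the genes were searched for these letters. RefSeq promoter sequences (GRCm38.p6, 250 bases before to 50 bases after the start) were matched for 28 of the 34 genes, and those of Atg12, Atg16l1, Becn1, Rb1cc1, Pik3c3 and Map1lc3a were not used here. The motif was in a promoter of 4 of the 28 genes (14.3%), namely Atg3, Atg5, Atg7 and Atg14, and of 8.09% of the 27018 genes in the table. The windows are shown because these 4 genes held the motif, and Atg3 and Atg14 among them were called between subsets in opposite directions on both scales. E-boxes are in capitals, each with 12 bases on either side, 5′ to 3′ on the strand of the gene.
Atg3 site 1, chr16:45158723-45158752, plus strand: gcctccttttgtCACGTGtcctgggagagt
Atg3 site 2, chr16:45158746-45158775, plus strand: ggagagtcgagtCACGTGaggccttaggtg
Atg7, chr6:114670952-114670981, plus strand: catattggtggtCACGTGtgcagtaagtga
Atg5, chr10:44268313-44268342, plus strand: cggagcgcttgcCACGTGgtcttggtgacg
Atg14, chr14:47568418-47568447, minus strand: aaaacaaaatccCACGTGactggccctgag
The E-boxes began 94 and 71 bases before the RefSeq start used for Atg3, 132 before that of Atg7, 14 before that of Atg5 and 1 before that of Atg14. Against the most upstream start of the gene in GENCODE vM21, they began 50 and 27 bases before it in Atg3 and 33 before it in Atg5, but 27867 bases inside the gene in Atg7 and 2214 bases inside it in Atg14. Of the 4 genes, Atg3 and Atg7 were higher in G-MDSCs, Atg14 was lower and Atg5 did not pass.

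The second comparison asked how Nlrp3-/- and WT cells differed within each subset, and few of the 34 genes moved. In M-MDSCs 2 of the 33 genes tested fell in Nlrp3-/- cells and none rose, where 7.1% of all 9986 genes tested were lower and 3.51% higher. Without a threshold on adjusted p, 8 of the 33 had p below 0.05, against 30.1% of all genes, and in G-MDSCs 12 of the 34 had, against 32.3%. In G-MDSCs 5 of 34 fell and 2 rose, where 11.7% of 9273 genes were lower and 4.7% higher. The shares of the 34 genes, 6.06% lower in M-MDSCs and 14.7% lower with 5.88% higher in G-MDSCs, were near these backgrounds. The median log2 fold change was 0.11 over the 33 genes in M-MDSCs (0.07 over all genes) and 0.08 over the 34 in G-MDSCs (0.03 over all). Genotypes did not overlap for 4 genes in M-MDSCs (19.3% of all genes) and for 8 in G-MDSCs (24.4% of all genes). With library size alone the median of all genes rose to 0.17 and 0.16 and that of the 34 genes to 0.22 and 0.20, and 1 gene rose and 2 fell in M-MDSCs and 3 rose and 4 fell in G-MDSCs. Over all genes that scale turned 351 higher and 709 lower calls into 684 and 569 in M-MDSCs, and 436 and 1086 into 793 and 854 in G-MDSCs.

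Rb1cc1 (chr1:6206197-6276648, mm10, plus strand), whose product scaffolds the ULK complex, fell most clearly. It stood at 157, 160.1, 172 and 179.6 CPM in M-MDSC WT and 63.9, 90.7, 86.1 and 50.5 CPM in M-MDSC Nlrp3-/- libraries. In G-MDSCs it stood at 319, 393, 379.9 and 390.2 CPM in WT and 155, 154, 170.3 and 119 CPM in Nlrp3-/- libraries. All 4 WT libraries lay above all 4 Nlrp3-/- libraries in each subset, and the level fell by 1.18 on the log2 scale in M-MDSCs (SE 0.19, adjusted p = 0.00413) and by 1.39 in G-MDSCs (SE 0.16, adjusted p = 8.47e-05). Tax1bp1 (chr6:52713729-52766780, mm10, plus strand) followed the same pattern. It stood at 266, 247, 244 and 255 CPM in M-MDSC WT and 140.4, 170.1, 145 and 149 CPM in M-MDSC Nlrp3-/- libraries, and at 548, 682, 619 and 571 and 302, 347, 309 and 385 CPM in the corresponding G-MDSC libraries. Again no library overlapped, with falls of 0.72 (SE 0.13, adjusted p = 0.00776) and 0.94 (SE 0.15, adjusted p = 0.000914) on the log2 scale. Both genes kept their calls in each of the 8 fits per subset that left out 1 library.

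Rb1cc1 and Tax1bp1 also had the lowest GC content of the 34 genes, at 39.1% and 39.6% of the longest annotated transcript (median of the 34 genes, 50.4%). Rb1cc1 had the longest such transcript, at 7607 bases. The assay read 3′ ends, so values of a whole transcript need not describe the sequenced fragments. Genotype changes followed GC content over all genes: in the 20% of genes lowest in GC, 16.7% were lower in Nlrp3-/- M-MDSCs and 25.6% in Nlrp3-/- G-MDSCs, against 1.16% and 1.57% in the 20% highest in GC. With GC content and length corrected, Rb1cc1 fell by 0.71 (adjusted p = 0.0378) in M-MDSCs and by 0.75 (adjusted p = 0.0071) in G-MDSCs. Tax1bp1 no longer passed, at -0.40 (adjusted p = 0.125) and -0.48 (adjusted p = 0.0597). Of the dendritic cell and macrophage markers, 5 of 8 tested were higher in Nlrp3-/- M-MDSCs and 5 of 6 in Nlrp3-/- G-MDSCs. Of the neutrophil markers, 2 of 9 tested were higher in Nlrp3-/- M-MDSCs and 1 of 11 was lower in Nlrp3-/- G-MDSCs. In M-MDSCs 1 of the 10 monocyte markers tested was lower in Nlrp3-/- cells. Klf4 stood at 424 to 690 CPM in WT and 279 to 343 CPM in Nlrp3-/- M-MDSCs. Of the monocyte markers in G-MDSCs, 1 of 9 tested was higher in Nlrp3-/- cells. Their sum there, 929 to 1274 CPM in WT and 1600.3 to 1668 CPM in Nlrp3-/- libraries, was mostly Csf1r (339 to 691 and 699 to 908 CPM) and Mpeg1, while Ccr2, F13a1, Ms4a6c and Klf4 overlapped. The 20 most abundant genes took 33.2% to 43.2% and 27.9% to 29.8% of the counts of WT and Nlrp3-/- G-MDSC libraries. The part of these differences in markers and in the most abundant genes in the genotype results was not tested.

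Wipi1, whose product binds PI3P on the forming membrane, fell in G-MDSCs. It stood at 18.3, 40.9, 22.0 and 17.5 CPM in G-MDSC WT and 9.0, 10.1, 10.8 and 5.76 CPM in G-MDSC Nlrp3-/- libraries, with no overlap and WT replicate 2 highest. The fall was 1.55 on the log2 scale (SE 0.34, adjusted p = 0.00608), and with GC content and length corrected it was 1.62 (adjusted p = 0.00903). In M-MDSCs Wipi1 stood at 8.72, 11.1, 7.48 and 7.18 CPM in WT and 4.30, 10.4, 6.67 and 6.54 CPM in Nlrp3-/- libraries, which overlapped (-0.31, adjusted p = 0.527). Its relative Wipi2 stood at 46.3, 54.1, 40.4 and 28.4 CPM in G-MDSC WT and 21.9, 22.4, 36.6 and 26.2 CPM in G-MDSC Nlrp3-/- libraries. These overlapped, and the call rested on an adjusted p of 0.0499 (-0.74, SE 0.25). In M-MDSCs Wipi2 stood at 23.7, 22.6, 26.5 and 25.0 CPM in WT and 12.8, 19.2, 16.1 and 18.1 CPM in Nlrp3-/- libraries, which did not overlap (-0.54, adjusted p = 0.0785). Atg9a, Atg2a and Atg2b gave values between -0.01 and 0.32 in M-MDSCs and between 0.01 and 0.25 in G-MDSCs.

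Optn also fell in G-MDSCs, by 0.94 on the log2 scale (SE 0.27, adjusted p = 0.0276), from the levels given above, where Nlrp3-/- replicate 4 lay above the lowest WT library, replicate 3. In M-MDSCs its counts were too low for the test over the 8 libraries of that subset. A model of all 16 libraries, which Optn entered through its G-MDSC counts, gave -1.61 there. The Nlrp3-/- M-MDSC libraries held 5 to 9 counts of it, so no call is taken from that fit. Ulk1, the kinase of the initiating complex, rose in G-MDSCs from 101, 85.1, 183 and 179.9 CPM in WT to 213, 253, 237 and 318 CPM in Nlrp3-/- libraries, with no overlap (0.81, SE 0.24, adjusted p = 0.0313). In M-MDSCs it stood at 34.5, 60.9, 68.7 and 46.9 CPM in WT and 56.9, 58.2, 47.1 and 78.9 CPM in Nlrp3-/- libraries, which overlapped (0.22, adjusted p = 0.561). Map1lc3a, of the LC3 and GABARAP family, rose in G-MDSCs from 51.7, 31.8, 30.0 and 29.5 CPM in WT to 39.9, 78.4, 76.8 and 67.9 CPM in Nlrp3-/- libraries (0.80, SE 0.25, adjusted p = 0.041). Replicate 1 was high among the WT and low among the Nlrp3-/- libraries, and the groups overlapped through it. In M-MDSCs Map1lc3a stood at 28.0, 32.0, 28.1 and 28.7 CPM in WT and 31.2, 32.2, 37.5 and 44.0 CPM in Nlrp3-/- libraries (0.33, adjusted p = 0.205). Ulk1 had a GC content of 58.0% and Map1lc3a of 63.1%, and with GC content and length corrected they gave 0.70 (adjusted p = 0.0758) and 0.36 (adjusted p = 0.367).

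Several G-MDSC calls hung on single libraries. The count of 7 fell to 3 without WT replicate 2 or Nlrp3-/- replicate 2, and to 4 without Nlrp3-/- replicate 3 or Nlrp3-/- replicate 4. Wipi2 kept its call only without WT replicate 4 or Nlrp3-/- replicate 3 (adjusted p up to 0.144 in the other fits), Optn only without WT replicate 3 or Nlrp3-/- replicate 4 (up to 0.0764) and Map1lc3a only without WT replicate 1 or Nlrp3-/- replicate 1 (up to 0.117). Ulk1 kept it without WT replicate 3, WT replicate 4 or Nlrp3-/- replicate 1 (up to 0.0998 in the others). Rb1cc1, Tax1bp1 and Wipi1 kept theirs in all 8 fits, with adjusted p up to 0.000867, 0.00581 and 0.023.

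**Figure D3:**
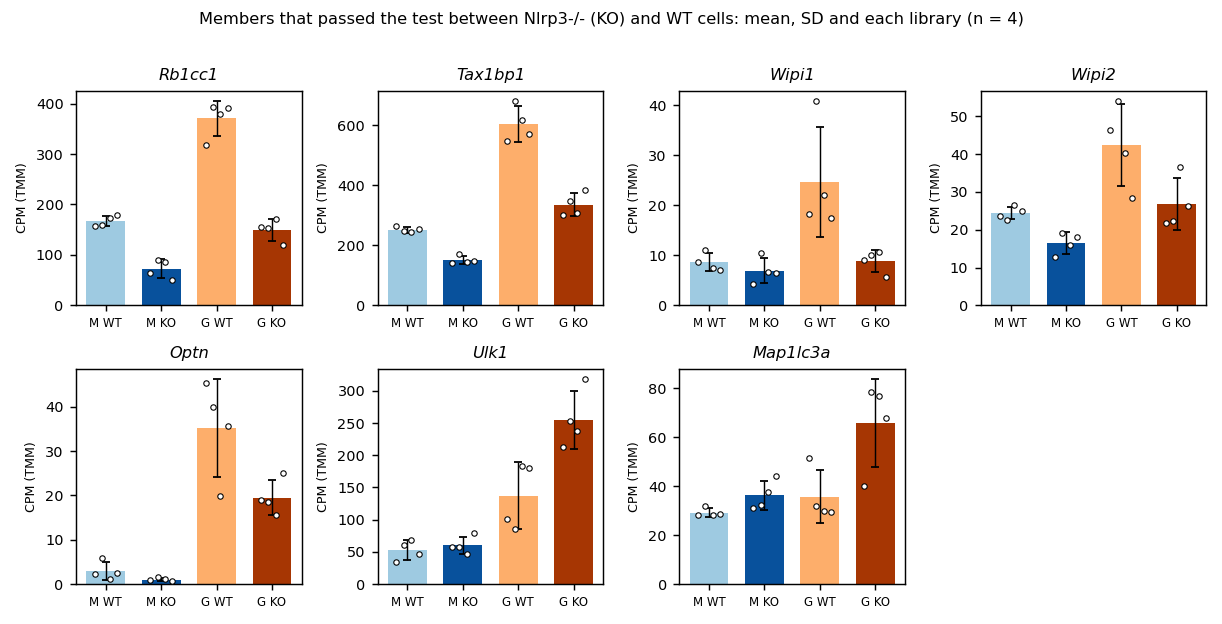
CPM (TMM-scaled) of the 7 genes called between genotypes in M-MDSCs (M) or G-MDSCs (G) of WT and Nlrp3-/- (KO) mice. Bars are means, error bars SD and points the 4 libraries of a group. Rb1cc1 and Tax1bp1 points separate by genotype in both subsets, while the G-MDSC points of Wipi2, Optn and Map1lc3a overlap.

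The other members did not pass between genotypes. In G-MDSCs the Nlrp3-/- libraries lay above all WT libraries for Gabarap (0.39, adjusted p = 0.0707), Atg16l2 (0.54, 0.0747), Pik3r4 (0.51, 0.125) and Atg10 (1.09, 0.161) as well as Ulk1. Atg16l2 passed with library size alone, with upper-quartile factors and with GC content and length corrected (adjusted p = 0.0351, 0.0469 and 0.0239). In M-MDSCs Atg5 lay lower in all Nlrp3-/- libraries (51.3 ± 5.63 CPM in WT against 39.8 ± 2.66 CPM, -0.34, adjusted p = 0.147). Tfeb gave 0.59 in M-MDSCs and 0.43 in G-MDSCs (adjusted p = 0.0797 and 0.128). It passed in M-MDSCs with library size alone, without WT replicate 1 or without Nlrp3-/- replicate 1 (adjusted p = 0.0453, 0.0417 and 0.0428), and in G-MDSCs without WT replicate 1 (adjusted p = 0.0371). Pik3r4 passed in G-MDSCs in the model of all 16 libraries (adjusted p = 0.0399). Map1lc3b gave 0.39 and 0.42 (0.119 and 0.0911), and Sqstm1, whose protein accumulates when autophagy stalls, 0.25 and 0.30 (0.35 and 0.239). Becn1 gave 0.32 and 0.08 (0.151 and 0.774).

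Whether the difference between genotypes itself varied between subsets was tested directly. None of the 34 genes passed in edgeR's interaction test, which called 0.0187% of 10696 genes higher and 0.00935% lower, and none passed in DESeq2. At an unadjusted p below 0.05 in edgeR there were 2, Wipi1 (-1.14, SE 0.47) and Atg13 (0.75, SE 0.35), both with an adjusted p of 0.992. For Wipi1 this corresponds to a subset difference of 1.5 in WT mice (adjusted p = 0.00126) and 0.25 in Nlrp3-/- mice (adjusted p = 0.589). Atg13, an adaptor of the ULK complex, stood at 17.2 ± 6.90 CPM in G-MDSC WT and 28.1 ± 4.31 CPM in G-MDSC Nlrp3-/- cells, and at 25.9 ± 3.90 and 25.0 ± 3.36 CPM in M-MDSCs (mean ± SD, n = 4). For Rb1cc1 and Tax1bp1 the difference between the 2 falls was -0.10 (SE 0.25) and -0.11 (SE 0.19), less than its error.

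**Figure D4:**
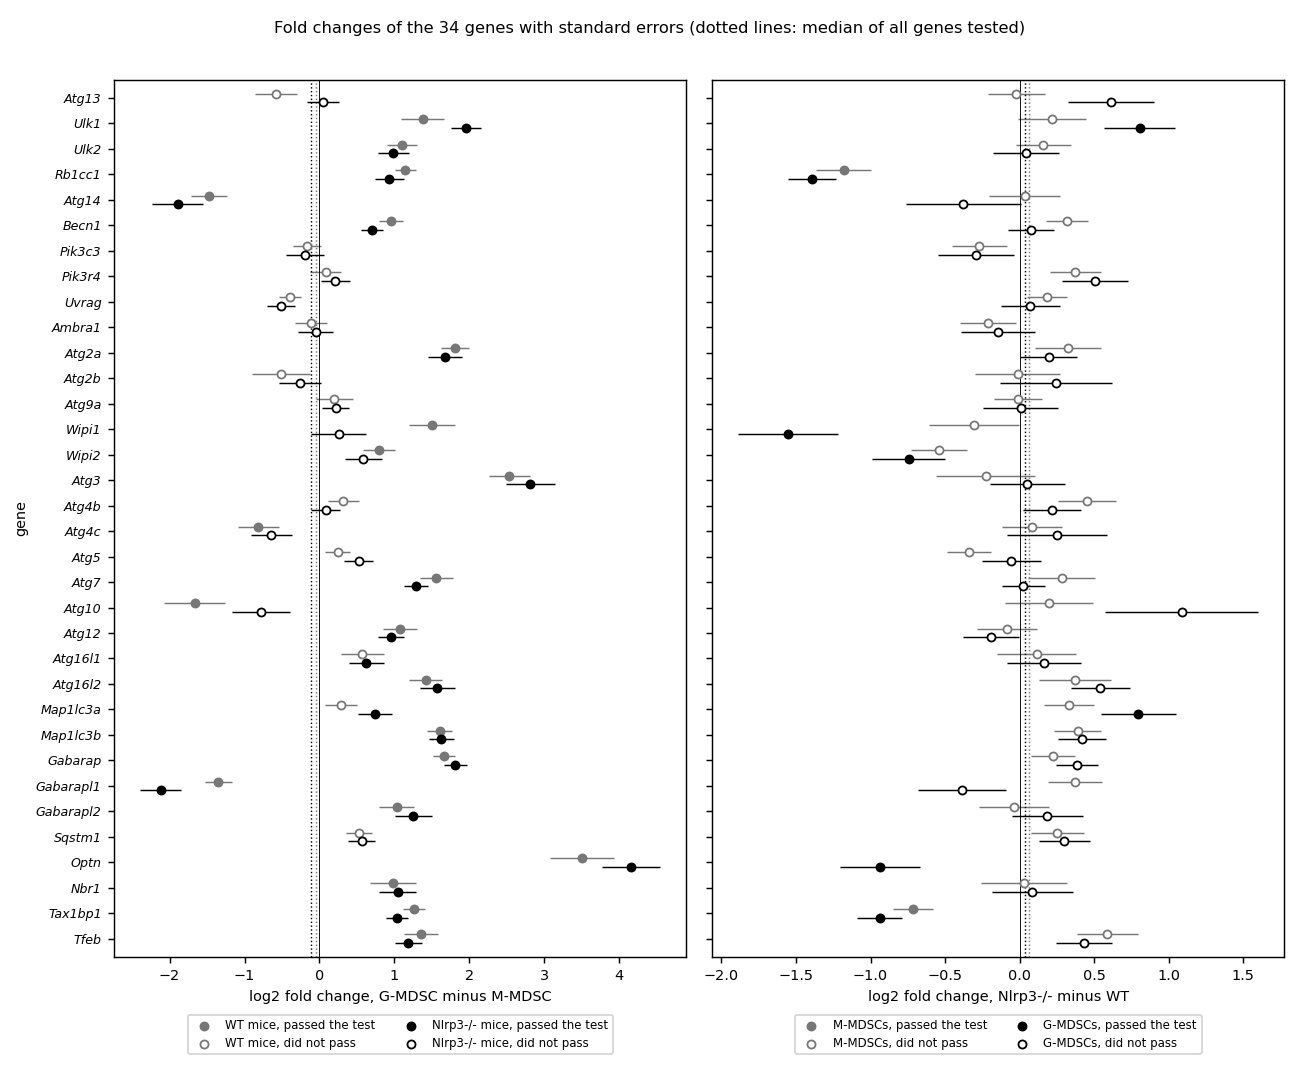
Log2 fold changes of the 34 genes with standard errors, between subsets (left, by genotype) and between genotypes (right, by subset), under TMM scaling. Filled points passed the test (adjusted p below 0.05, fold above 1.5), dotted lines are medians of all genes tested, and Optn has no point for M-MDSCs on the right. The points on the left spread from -2.12 to 4.16 and those on the right from -1.55 to 1.09.

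A further 50 genes that act before, beside or after the core machinery were examined as 4 lists. Between subsets, 23 of 47 tested were higher and 8 lower in G-MDSCs of WT mice, and 18 of 46 were higher and 8 lower in Nlrp3-/- mice. These were 48.9% and 17.0% of the genes in WT mice (26.3% and 27.1% over all genes) and 39.1% and 17.4% in Nlrp3-/- mice (23.7% and 27.4%). With library size alone the counts were 7 higher and 16 lower in WT mice and 6 higher and 16 lower in Nlrp3-/- mice, so those that follow hold under TMM. Of 8 tested genes of initiation and membrane supply, 5 were higher in each genotype and 1 was lower in WT mice. Among those higher in both were Vmp1, a lipid scramblase of the endoplasmic reticulum (1.96 and 2.73), and Tmem41b (2.22 and 1.64). The 13 fusion genes were divided, with 5 and 4 higher and 2 and 3 lower in WT and Nlrp3-/- mice. Rab7, the late endosome GTPase, gave 1.07 and 1.06, and Vps41, a subunit of the HOPS tether, gave -1.22 and -1.51. Of the selective receptors, 7 of 12 were higher and 2 lower in WT mice and 4 of 11 higher and 1 lower in Nlrp3-/- mice. The reticulum receptors Fam134b (3.33 and 3.69) and Ccpg1 (3.08 and 2.89) and the mitochondrial receptor Bnip3 (2.60 and 2.27) were higher. Like Vmp1, Tmem41b, Vps41 and Rptor, they kept their calls in both genotypes with library size alone. On that scale 3 selective receptors were higher and 3 lower in WT mice, and 3 higher and 4 lower in Nlrp3-/- mice. Tex264 (-2.65 and -2.21) and Fundc1 (-1.62 and -1.37) were among those lower in both genotypes. Of 14 upstream kinases and regulators, 6 and 5 were higher and 3 and 4 lower. The AMPK catalytic subunit Prkaa1 gave 1.12 and 1.23, and Rptor, the mTORC1 scaffold, gave -1.70 and -2.09. With library size alone Prkaa1 did not pass in either genotype (0.38 and 0.51). Other AMPK subunits were divided on that scale, with Prkab1 higher (0.93 and 0.81) and Prkab2 (-1.70 and -1.84) and Prkag2 (-1.73 and -1.77) lower. Tsc1 (-1.06 and -1.69) and Tsc2 (-1.23 and -0.88) were lower as well.

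Between genotypes 2 of 46 genes of these lists were higher and 2 lower in M-MDSCs (4.35% each, against 3.51% and 7.1% of all genes), and 2 of 47 were higher and 2 lower in G-MDSCs (4.26% each, against 4.7% and 11.7%). With library size alone the counts were 4 higher and 2 lower in M-MDSCs and 5 higher and 1 lower in G-MDSCs. Nrbf2, which encodes a partner of the class III kinase complex, fell in both subsets (-1.27, SE 0.34, adjusted p = 0.034, and -1.55, SE 0.42, adjusted p = 0.0203). Fam134b fell in both as well (-1.05 and -0.68, adjusted p = 0.0255 and 0.0107). Calcoco1 (1.40) and Plekhm1 (0.83) rose in M-MDSCs, and Vmp1 (0.90) and Vps39 (0.79) rose in G-MDSCs. None of the 14 upstream kinases and regulators tested was called between genotypes in either subset with TMM (edgeR), and 1 was higher in M-MDSCs with library size alone.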

How the data were processed

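Total RNA of sorted cells was made into QuantSeq 3′ mRNA-Seq libraries, sequenced, aligned to mm10 with HISAT2 2.1.0 and counted per gene, by strand, with htseq-count 0.11.2. The deposited values are raw counts per gene, without normalization by the authors, 1 library per sample, with 0 columns left unmapped. Groups were taken from the labels. Totals were 2295967 to 6079866 counts per library, at which 3 counts, the limit that a count of 0 allows, correspond to 0.348 to 1.17 CPM (counting error only). Each of the 24 pairs of libraries within a group was compared and 0 held identical values.

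CPM were computed with TMM factors over all 16 libraries, and log2 CPM with a prior count of 2. Each comparison was fitted on its 8 libraries with edgeR 4.0.16 (R 4.3.3; filterByExpr, TMM, quasi-likelihood F test), with Benjamini-Hochberg adjustment over all genes tested. Called genes had an adjusted p below 0.05 and a fold above 1.5, the rule the study used with edgeR 3.14.0. The interaction used all 16 libraries. The subset comparisons paired libraries of the same mouse in an alternative fit, since the labels give both subsets of a mouse 1 number (mean correlation of same-mouse deviations 0.24 in WT and 0.19 in Nlrp3-/- mice). Other alternatives were DESeq2 1.42.0, edgeR's exact test, other scalings, no filter or a stricter filter on low counts, no fold minimum, correction for GC content and length, a model of 16 libraries, and leaving out each library. The scaling by library size of the within-mouse counts and of the pathway lists was added after the data were seen. On simulated counts with 200 genes changed 3-fold, the test recovered 76%, 78%, 77%, 66% and 41% of them in the M-MDSC genotype (9856 genes), G-MDSC genotype (9054), WT subset (9374), Nlrp3-/- subset (9695) and interaction comparison (10468). In the genotype and subset simulations every other gene had the same level in both groups. The recovered shares therefore do not cover the difference in composition between subsets. GC content and length (of the longest transcript of a gene) and positions came from GENCODE vM21 on mm10, and promoters from RefSeq on GRCm38.p6.

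Values of every library were given for genes called between genotypes, for up to 6 genes with the smallest p in each direction among those called between subsets in both genotypes, and for the LC3 and GABARAP family. Members and lists were chosen with earlier results of these data known. With 4 libraries against 4, the smallest p of an exact permutation test of 1 gene is 0.0286.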

Additional observations from a re-analysis of the deposited data

Results flagged for a closer look

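In 3 of the 136 sets of 4 libraries examined (34 genes in 4 groups), 1 library stood far from the other members of its group by Dixon's ratio of gap to range, which chance gives in about 1 set in 20. Atg9a stood at 28.1 CPM in M-MDSC WT replicate 4, where the other 3 libraries lay between 35.8 and 36.2 CPM. Map1lc3a stood at 51.7 CPM in G-MDSC WT replicate 1, against 29.5 to 31.8 CPM in the others, and without that library the rise of Map1lc3a in Nlrp3-/- G-MDSCs had an adjusted p of 0.0143 (edgeR). Nbr1 stood at 39.5 CPM in M-MDSC Nlrp3-/- replicate 1, against 19.8 to 22.5 CPM in the others.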

How the results depend on the processing

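Among alternative values for the main counts and levels, 101 stayed within the range set for them, 9 counts fell by more than 1.5 times and 4 levels moved. Counts were judged by the total called, whatever the direction or gene. With library size alone, 18 higher and 4 lower between subsets became 9 and 10 in WT mice. In Nlrp3-/- mice 18 and 2 became 7 and 10. Both are among the 101, although their directions did not hold. For the 8 genes whose subset values are given per library in both genotypes and the 9 calls between genotypes, 454 kept direction and side of the threshold, 44 lost the threshold and 0 reversed. Outside these, Becn1 (-0.02) and Atg16l1 (-0.10) turned sign between subsets in Nlrp3-/- mice with library size alone. With library size alone the mean log2 CPM of the 34 genes was 5.50 in M-MDSC WT, 5.60 in M-MDSC Nlrp3-/-, 5.39 in G-MDSC WT and 5.54 in G-MDSC Nlrp3-/- libraries. In M-MDSCs the 2 genes called between genotypes became 1 with GC content and length corrected and 0 with the replicate block added, and 2 to 3 when each library was left out. In G-MDSCs the 7 became 4 with GC content and length corrected, 2 with the replicate block added and 3 to 5 when each library was left out. Same-numbered WT and Nlrp3-/- libraries came from different mice and did not deviate together (mean correlation -0.16 in M-MDSCs and -0.15 in G-MDSCs), so the replicate block pairs a number only. It gave 4 calls in G-MDSCs and 2 in M-MDSCs. With the mouse as block the subset comparisons gave 23 calls in WT and 21 in Nlrp3-/- mice with no call lost, and leaving out each library gave 21 to 23 and 19 to 24. The interaction gave 0 calls in each fit. Levels near 3 counts, such as Optn in M-MDSCs and Atg10 in G-MDSCs, are limited by depth.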
